A study of Mus musculus with 20 samples.

Results

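Centrocytes and centroblasts of control mice were compared across all genes, which is the normal contrast between the light zone and the dark zone of the germinal centre. The 10 libraries were chosen by their titles, 5 of control centroblasts and 5 of control centrocytes, out of 20 RNA sequencing libraries in the series. The control mice were labelled wild type for Myd88L252P and carried Cgamma1Cre +/-, a Cre recombinase driven from the C gamma 1 immunoglobulin locus, which is active in B cells that enter the germinal centre. The other 10 libraries, 5 of centroblasts and 5 of centrocytes, came from mice labelled Myd88L252P +/- with the same Cgamma1Cre +/- and are used here to compare the zone contrast between genotypes. Cells of both kinds were B220+, FAS+ and GL7+, and the sort took CXCR4+ CD86- ones as centroblasts and CXCR4- CD86+ ones as centrocytes. Age and immunisation were not given in the labels, nor whether each of the 5 libraries in a group stands for a different mouse, so that p-values measure the spread between these libraries, which may be technical.

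The germinal centre is the structure in which B cells that have met antigen multiply, diversify their receptors and compete for survival. In the dark zone, centroblasts divide and mutate their immunoglobulin genes. In the light zone, centrocytes test the altered receptor on antigen held by follicular dendritic cells, present antigen to T follicular helper cells and receive CD40 and cytokine signals, after which they return to the dark zone or leave as memory or plasma cells. CXCR4 holds cells in the dark zone and CXCR5 draws them to the light zone.

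Levels were in TPM, a share of all transcripts that is corrected for transcript length and sums to the same total in each library. Changes were tested on the log2(TPM + 1) scale with limma, and a gene was called at an adjusted p under 0.05. This scale understates the change of low genes. In bulk libraries such as these, fewer cells that hold a transcript and less of it per cell cannot be told apart. Of 10899 genes tested, 5105 were called (46.8%), 3551 higher in centrocytes (32.6%) and 1554 lower (14.3%). At least 1 on the log2 scale separated 438 higher genes (4.02%) and 86 lower genes (0.789%), and the 5 libraries of each kind did not overlap for 2870 called genes (26.3%). The median of all genes lay 0.13 above 0. Median-of-ratios scaling, which sets the typical gene to no change, moved it to -0.01 and split the calls into 2381 higher (21.8%) and 2678 lower (24.6%), so that rises no longer outnumbered falls. Small changes depend on this choice. Examples are Bach2, Cd44, Ezh2, Gna13, Myd88, Pcna, Psmb8, Psmb9, Traf1, Ung and Xbp1, which were called lower after it and not without it, and Cd79a, Fcgr2b, Mcl1, Orc1 and Wee1, which were called higher without it and not after it. Between 13053 and 13356 genes lay above 0 in centroblast libraries and between 13513 and 13764 in centrocyte libraries. Transcripts of at most 1599 bases took 28.6 to 31.6% of TPM in centroblasts and 28.04 to 29.9% in centrocytes.

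**Figure D1:**
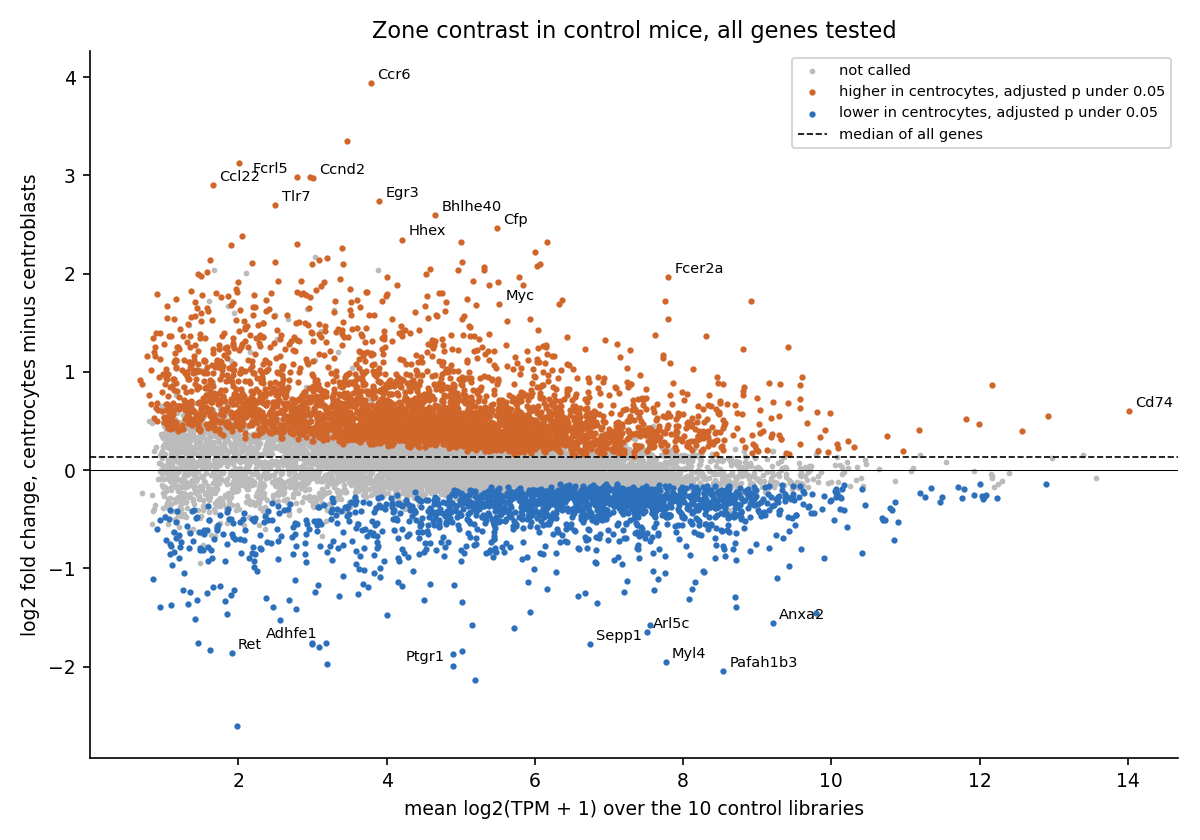
Each point is 1 of the 10899 genes tested in control mice, with its mean log2(TPM + 1) over 10 libraries on the x axis and its log2 fold change, centrocytes minus centroblasts, on the y axis; orange and blue points were called higher and lower in centrocytes, grey points were not called, and the dashed line is the median of all genes (0.13). Ccr6 stands highest (3.94), and the rises reach further from 0 than the falls.

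The sort was checked first, with 4 genes of sorted proteins. The gates could set the difference of Cxcr4 and Cd86, which is therefore no finding, while FAS and B220 were selected for alike in both gates. Cxcr4 lay at 574, 622, 546, 565 and 568 TPM in centroblast libraries 1 to 5 and at 324, 311, 277, 312 and 298 TPM in centrocyte libraries 1 to 5. Cd86 lay at 173, 177, 124, 111 and 129.6 TPM in centroblasts and 308, 329, 318, 329.9 and 305 TPM in centrocytes. Both followed their gate in every library, with changes of -0.92 and 1.17, and neither was absent from the gate that selected against its protein. Fas, selected for in both gates, did not pass the test (log2 change 0.19 ± 0.08 SE, adjusted p = 0.0602). The B220 epitope is borne by the product of Ptprc, whose transcript was 567 ± 105 TPM in centroblasts and 1087 ± 85.9 TPM in centrocytes (0.95).

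All 10 libraries held the transcripts of B cells and of the germinal centre, but not at equal levels. The 15 germinal centre markers found summed to 4977 to 5458 TPM in centroblasts and 3952 to 4565 TPM in centrocytes, lowest in centrocyte library 2. Of 14 tested 5 fell and 1 rose (0 after median-of-ratios scaling and 3 with array weights), and 5 of the 14 are also in the dark zone list below. Ms4a1, which encodes CD20, lay between 2446 and 3405 TPM in centroblasts and between 4078 and 4525 TPM in centrocytes. Markers of other cells were not all equal between the gates. The 26 macrophage, monocyte and neutrophil markers found, leaving out Apoe, which is itself high in these cells, summed to 65.1 to 89.8 TPM in centroblasts and 168 to 375 TPM in centrocytes, so the groups did not overlap. Of the 18 members tested, Apoe included, 16 rose and 0 fell, with Csf1r, the receptor that defines the lineage, at 2.73 ± 0.624 TPM in centroblasts and 13.7 ± 5.06 TPM in centrocytes (1.92). Of the 27 members found, 5 stayed under 1 TPM in all 10 libraries, and 1 of those, Elane, lay at 0. Centrocyte library 2 was the highest in this sum (375 TPM) and centrocyte library 3 the lowest (168 TPM), and without library 2 the counts were again 16 and 0. Germinal centre macrophages take up dying cells, and the part of their transcripts in the differences below was not tested. The 16 naive and follicular B cell markers summed to 1317 to 1659 TPM in centroblasts and 2254 to 3024 TPM in centrocytes, 14 rose and 0 fell, and none lay at 0 in all libraries.

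Of 9 T cell markers tested 3 rose and 1 fell. Cd3e stayed at or below 1.001 TPM and Cd3g at or below 1.76 TPM in every library. The sum over 19 markers found was 474 to 636 TPM in centroblasts and 458 to 581 TPM in centrocytes. Most of it came from Cd2 (means of 368 TPM in centroblasts and 234 TPM in centrocytes) and Lck (146 and 223 TPM). Of 7 plasma cell markers 3 rose (1 with a filter of 5 TPM) and 3 fell, and Sdc1 stayed at or below 1.33 TPM. The sum over 10 markers was lower in centrocytes (1893 to 2211 TPM against 3265 to 3929 TPM). Most of this sum came from 2010001M09Rik (means of 1833 TPM in centroblasts and 1021 TPM in centrocytes) and Igj (1311 and 705 TPM). These sums are therefore no measure of how many such cells were present. Of 17 marginal zone and B1 cell markers 11 rose and 3 fell (7 rose among those that pass a filter of 5 TPM), of 3 dendritic cell markers 2 rose (1 after median-of-ratios scaling, or without centroblast library 1 or 3 or centrocyte library 2 or 3), and of 3 erythroid, 2 stromal and 1 NK cell markers tested none was called (limma, adjusted p under 0.05). Hba-a1 lay at 0 in all 10 libraries, while the beta globin gene Beta-s ranged from 20.9 to 260 TPM in centroblasts and from 37.6 to 259 TPM in centrocytes. Of 12 genes of dissociation and heat shock 5 rose (3 after median-of-ratios scaling) and 2 fell (1 with a filter of 5 TPM), and the sum over the 14 found was 1699 to 2125 TPM in centroblasts and 2077 to 2367 TPM in centrocytes.

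**Figure D2:**
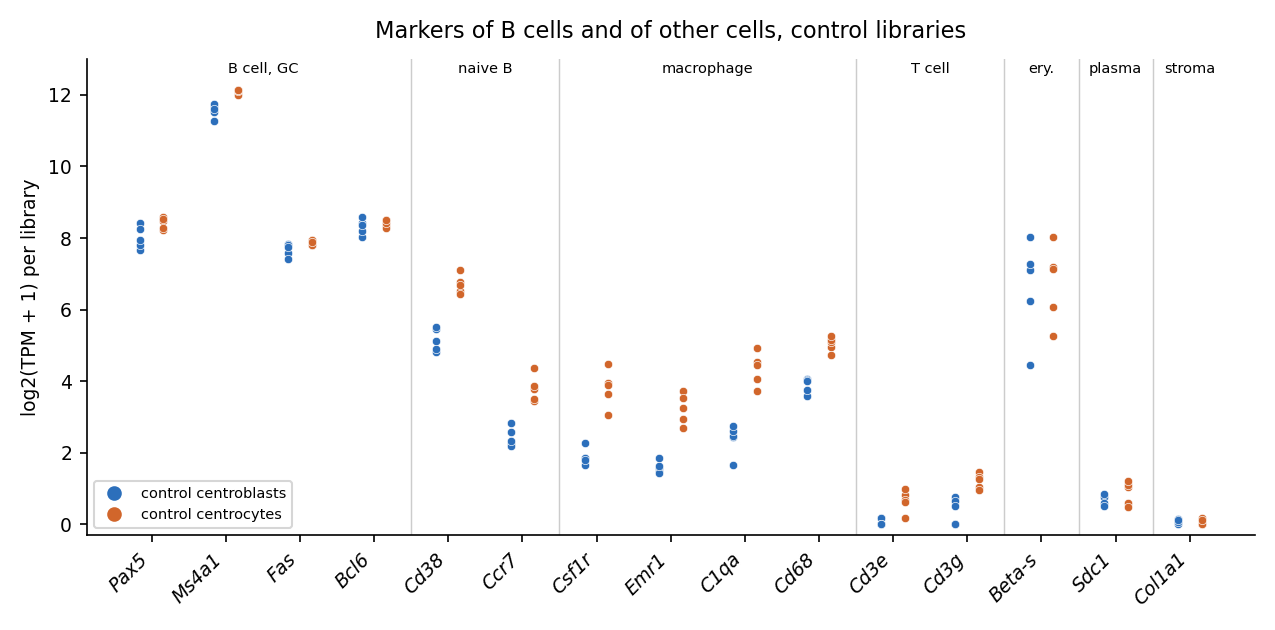
Each point is log2(TPM + 1) of 1 marker gene in 1 control library, centroblasts in blue and centrocytes in orange, grouped by the cell type the gene marks (GC, germinal centre; ery., erythroid). Csf1r, Emr1, C1qa, Cd38 and Ccr7 lay higher in all 5 centrocyte libraries than in all 5 centroblast libraries, while Cd3e, Sdc1 and Col1a1 were near 0 in both.

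Genes named by size had to be called and without overlap between the groups, so their lack of overlap is no finding. Ccr6 gave the largest rise of the genes named by size. It encodes the receptor for the chemokine CCL20 and lies on chromosome 17, 8236043 to 8257141 (GRCm38). It was at 1.799, 3.85, 1.91, 2.32 and 3.11 TPM in centroblast libraries 1 to 5 and at 43.3, 98.0, 44.1, 40.2 and 55.4 TPM in centrocyte libraries 1 to 5. The groups were far apart, and centrocyte library 2, which also held most macrophage and naive B cell marker transcripts, stood above the other 4. The ratio of the means was 21.6 (log2 change 3.94 ± 0.22 SE, adjusted p = 3.51e-08). Hhex, a homeobox transcription factor gene known from memory B cell formation, had the same high library, at 6.67, 11.9, 6.06, 5.08 and 7.81 TPM in centroblasts and 36.0, 62.7, 35.3, 36.0 and 39.2 TPM in centrocytes (log2 change 2.35 ± 0.19 SE, adjusted p = 8.39e-07). Plac8 was also highest in centrocyte library 2, with 128, 270.1, 136, 125 and 171 TPM in centrocytes against 35.7, 40.8, 40.3, 17.3 and 27.6 TPM in centroblasts (log2 change 2.32 ± 0.28 SE, adjusted p = 0.000128). Among the 15 largest rises this library was the highest of its 5 for 8 genes and the lowest for 0, and centrocyte library 1 was the lowest for 10.

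Fcrl5, Tlr7 and Cfp encode proteins of innate and inhibitory recognition. Fcrl5, an Fc receptor-like protein of the B cell surface, was at 1.14, 1.76, 2.25, 0.762 and 1.62 TPM in centroblasts and 12.4, 23.7, 26.5, 15.1 and 17.6 TPM in centrocytes, a change of 2.98. Tlr7, the endosomal receptor for single-stranded RNA, was at 0.947, 0.842, 1.81, 0.878 and 1.85 TPM in centroblasts and 9.63, 21.2, 14.1, 11.3 and 13.1 TPM in centrocytes, a change of 2.70. Both genes were near the low end of the values tested in centroblasts and clearly expressed in every centrocyte library. Cfp, which encodes properdin of the alternative complement pathway, was at 17.2, 17.0, 18.3, 20.9 and 17.1 TPM in centroblasts and 83.6, 118, 116, 99.9 and 106 TPM in centrocytes. Its 2 groups varied little within themselves, and it had one of the 2 smallest p-values of all named genes (log2 change 2.46 ± 0.10 SE, adjusted p = 8.27e-10), with Pafah1b3.

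Ccnd2, Ccl22, Egr3 and Bhlhe40 belong to the response of B cells to receptor and CD40 signals. Ccnd2, which encodes cyclin D2, was at 1.19, 1.64, 3.79, 1.98 and 1.35 TPM in centroblasts and 16.2, 23.1, 27.7, 21.7 and 20.1 TPM in centrocytes (log2 change 2.97 ± 0.20 SE, adjusted p = 7.49e-08). Ccl22, whose product attracts T cells that carry CCR4, was at 0.109, 0.134, 0.329, 0 and 0.246 TPM in centroblasts and 5.09, 7.79, 10.2, 6.48 and 9.74 TPM in centrocytes (log2 change 2.90 ± 0.18 SE, adjusted p = 3.9e-08). It was therefore at or near 0 in every centroblast library and between 5.09 and 10.2 TPM in every centrocyte library. Egr3 was at 2.09, 4.80, 7.02, 5.73 and 5.67 TPM in centroblasts and 25.3, 40.6, 59.1, 34.2 and 35.3 TPM in centrocytes. Bhlhe40, a repressor of the basic helix-loop-helix family, was at 4.68, 11.1, 14.9, 10.3 and 8.24 TPM in centroblasts and 38.5, 68.7, 88.8, 59.0 and 60.4 TPM in centrocytes. For both genes centrocyte library 3 was the highest and centroblast library 1 the lowest. The remaining large rises were those of the urokinase receptor gene Plaur (2.38), the protease inhibitor gene Serpinb1a (2.32), the glutamate receptor gene Grm6 (2.30), the phospholipase gene Plbd1 (2.26) and the actin capping gene Capg (2.22). Plaur and Capg are also expressed by myeloid cells, whose markers moved the same way, and the part of those cells in them was not tested.

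Pafah1b3, which encodes a catalytic subunit of the intracellular platelet-activating factor acetylhydrolase, gave the largest fall of the genes named by size. It lies on chromosome 7, 25295049 to 25297986 (GRCm38). It was at 698, 679.7, 835, 801 and 774 TPM in centroblast libraries 1 to 5 and at 214, 173, 188, 172 and 167 TPM in centrocyte libraries 1 to 5. Every centroblast library held at least 679.7 TPM and every centrocyte library at most 214 TPM, and the ratio of the means was 4.14 in favour of centroblasts (log2 change -2.05 ± 0.08 SE, adjusted p = 8.27e-10). Myl4, a myosin light chain gene best known from heart, was at 479, 404, 395, 400.0 and 468 TPM in centroblasts and 130.5, 110.0, 88.7, 113 and 109 TPM in centrocytes (log2 change -1.96 ± 0.09 SE, adjusted p = 4.53e-09). Ptgr1, which reduces prostaglandins and leukotrienes, was at 64.6, 67.8, 53.8, 56.2 and 51.1 TPM in centroblasts and 15.5, 14.98, 11.2, 15.1 and 13.3 TPM in centrocytes (log2 change -1.99 ± 0.11 SE, adjusted p = 1.38e-08). By the naming rule neither gene could overlap between the groups.

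Several receptors and regulators known from other tissues were among the falls. Lgr5, the R-spondin receptor that marks intestinal stem cells, was at 14.7, 16.4, 12.8, 14.99 and 15.5 TPM in centroblasts and 2.47, 3.37, 3.40, 4.37 and 4.36 TPM in centrocytes, a change of -1.803. Ret, a receptor tyrosine kinase, was at 6.25, 7.70, 4.66, 7.11 and 5.50 TPM in centroblasts and 1.31, 0.840, 0.546, 1.01 and 1.24 TPM in centrocytes, a change of -1.86. Both were low transcripts, present in each centroblast library. Sepp1, which encodes the selenium carrier selenoprotein P, was at 213, 167, 210.4, 179 and 220.0 TPM in centroblasts and 55.5, 51.0, 55.9, 63.8 and 59.3 TPM in centrocytes (-1.77). Gcet2, now named Gcsam, a signalling protein specific to germinal centre B cells, was at 339, 311, 310.4, 317 and 339 TPM in centroblasts and 137, 105, 76.3, 114 and 113 TPM in centrocytes (-1.58). The others were Tifa (-1.88), an adaptor of the NF-kB pathway, the phosphodiesterase gene Pde2a (-1.84), Adhfe1 (-1.76), Arl5c (-1.65), Serinc5 (-1.61), the deubiquitinase gene Otub2 (-1.58), Anxa2 (-1.55) and the reelin gene Reln (-1.53). Anxa2 was the most abundant of these in centroblasts, at 1025 ± 156 TPM, and it varied most within centrocytes, from 226 to 499.7 TPM.

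**Figure D3:**
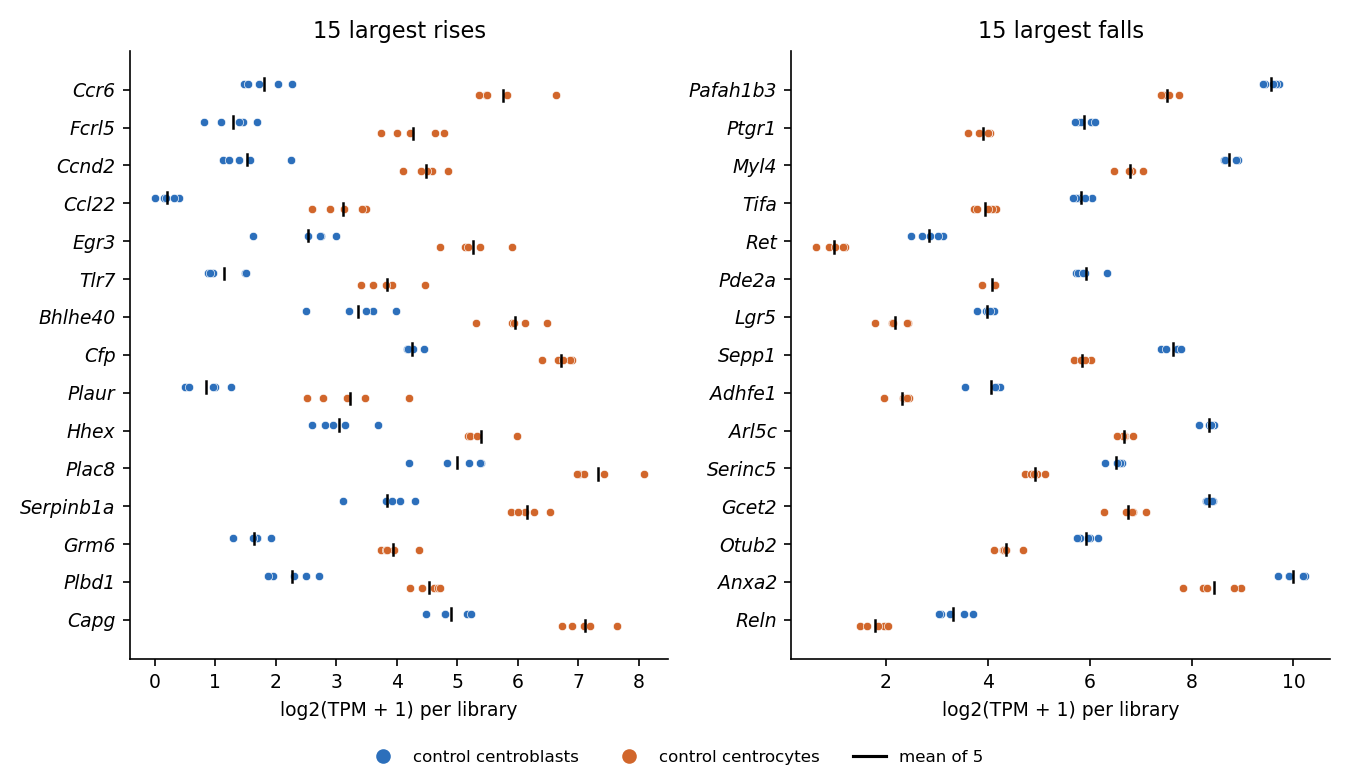
Points are log2(TPM + 1) of the 15 largest rises (left) and 15 largest falls (right) in each of 5 centroblast libraries (blue) and 5 centrocyte libraries (orange), with a bar at the mean of 5. By the rule that named them no gene overlaps between the groups; the point far to the right in the Ccr6 row is centrocyte library 2 (98.0 TPM).

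Gene lists were described by how many members were called, to be read against 32.6% higher and 14.3% lower among all genes. Of 32 light zone genes 28 rose (87.5%) and 1 fell (3 after median-of-ratios scaling), with a median of 1.21. Fcer2a, which encodes the low-affinity IgE receptor CD23, was at 107, 129.8, 100.4, 103 and 122 TPM in centroblasts and 347, 465, 429.6, 448 and 519 TPM in centrocytes (log2 change 1.96 ± 0.10 SE, adjusted p = 8.53e-09). Cd83, a surface protein used to gate light zone cells, was at 236, 210.3, 349, 245 and 303 TPM in centroblasts and 743, 677, 1000.2, 968 and 1043 TPM in centrocytes (log2 change 1.72 ± 0.15 SE, adjusted p = 4.5e-06). For both genes the lowest centrocyte library held more than the highest centroblast library by a wide margin. Slamf1 (1.35), Bcl2a1b (1.54), Batf (1.07), Lmo2 (1.15) and Cd69 (1.02) rose too, and Bcl2a1b has near-identical copies, so that its share of their reads is uncertain. Cd44 (-0.17) and Traf1 (-0.06) were not called. The member that fell was 1190002H23Rik, an older symbol of Rgcc, at 65.5, 61.6, 97.9, 74.8 and 83.4 TPM in centroblasts and 22.8, 13.7, 14.1, 15.98 and 16.8 TPM in centrocytes (-2.14). It takes part in the control of the cell cycle. This list shares 12 tested genes with the NF-kB target list below. It also shares 3 with the naive and follicular B cell markers above, Fcer2a among them, and the part of naive cells in it was not tested.

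Of 21 dark zone genes 11 fell (52.4%) and 2 rose (1 after median-of-ratios scaling or with all 20 libraries in the fit), with a median of -0.32. Neil1, a glycosylase of base excision repair, was at 588, 709.8, 667, 813 and 647 TPM in centroblasts and 281, 300.03, 233, 236 and 245 TPM in centrocytes (log2 change -1.40 ± 0.09 SE, adjusted p = 6.7e-08). Polh, the error-prone polymerase that mutates A and T positions, was at 210.2, 251, 221, 229 and 204 TPM in centroblasts and 111, 119, 85.7, 98.1 and 96.0 TPM in centrocytes (log2 change -1.13 ± 0.09 SE, adjusted p = 3.9e-07). For both genes every centrocyte library held less than any centroblast library. The coactivator gene Pou2af1 fell from 2366 ± 171 to 1441 ± 60.5 TPM (-0.71). Of 8 members that were not called, Foxo1 (-0.03), Ezh2 (-0.08), Rgs13 (0.21) and Plk4 (0.01) are known from dark zone cells. Smarca2 (0.91) and Wee1 (0.27) rose.

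The wider list of hypermutation and class switch genes did not move one way. Of 35 members 10 fell (28.6%) and 8 rose (22.9%), with a median of 0.03. The count of rises was 5 after median-of-ratios scaling, 13 with array weights and 14 without centroblast library 2. Besides Neil1 and Polh the falls included Xrcc1 (-0.55), Apex2 (-0.51), Lig4 (-0.42) and Mbd4 (-0.32), which belong to base excision repair and end joining. Ung, the glycosylase that removes uracil, was at 54.5, 45.1, 55.7, 57.0 and 53.1 TPM in centroblasts and 53.3, 45.9, 49.1, 48.0 and 47.2 TPM in centrocytes, with overlapping groups, and was not called (log2 change -0.12 ± 0.08 SE, adjusted p = 0.225). The rises were led by the kinase gene Atm (0.69), Apex1 (0.51) and Rif1 (0.49). Apex1 and Apex2, which encode related endonucleases, thus changed in opposite directions, Apex1 from 135 ± 9.43 to 193 ± 16.4 TPM and Apex2 from 30.1 ± 1.64 to 20.8 ± 1.74 TPM.

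Most genes of G2 and mitosis were lower in centrocytes. In the list for these phases 43 of 54 members fell (79.6%) and 0 rose (1 without centroblast library 2), with a median of -0.45. Cdc25b, a phosphatase that starts mitosis, was at 371, 409, 418, 508 and 422 TPM in centroblasts and 172, 182, 159, 161 and 177 TPM in centrocytes (log2 change -1.31 ± 0.08 SE, adjusted p = 3.15e-08). Cdc20, the activator of the anaphase-promoting complex, was at 366, 374, 450.4, 498 and 435 TPM in centroblasts and 229, 205, 160.1, 182 and 188 TPM in centrocytes (log2 change -1.14 ± 0.10 SE, adjusted p = 1.29e-06). No centrocyte library reached the lowest centroblast library in either gene. The mitotic kinase gene Nek2 (-0.95), the cyclin gene Ccnb2 (-1.04) and the centromere histone gene Cenpa (-1.05) fell as well. Mki67, the gene of the proliferation antigen Ki-67, was at 313, 622, 386, 424 and 368 TPM in centroblasts and 375, 521, 486, 409 and 406 TPM in centrocytes, overlapped between the groups and was not called (log2 change 0.09 ± 0.16 SE, adjusted p = 0.681), and its sign turned with median-of-ratios scaling.

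The promoters of this list are shown because its members moved together. Of 54 tested members 47 matched RefSeq promoter windows (GRCm38.p6, 250 bases before to 50 after the start, 51 windows). The cell cycle homology region (CHR) element TTTGAA, read on both strands, lay in 66.7% of them. It lay in 17.9% of all 32851 promoter windows, 12.4% of those of tested genes and 14.4% of those of genes called lower. The CCAAT box, searched as CCAAT on both strands, lay in 80.4%, against 37.4% of all windows and 38.4% of those of tested genes. A match of 1 motif can overlap a match of the other without implying it. Below, the 100 bases before the start are given for 4 members, 5′ to 3′ on the gene's strand, with the CHR match in capitals, as TTTGAA or, on the other strand, as TTCAAA. Such a match is a description of letters and not a shown site. These 4 genes fell by 1.14 (Cdc20), 1.03 (Ube2c), 0.61 (Bub3) and 0.70 (Kif22) on the log2 scale. All 4 were taken, after the values were seen, in order of adjusted p from called falls with a match in these bases. Falls without a match there were passed over.
Cdc20, chr4:118437344-118437443, reverse strand: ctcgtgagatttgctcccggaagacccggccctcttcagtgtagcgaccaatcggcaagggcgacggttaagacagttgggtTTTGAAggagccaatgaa
Ube2c, chr2:164769829-164769928, forward strand: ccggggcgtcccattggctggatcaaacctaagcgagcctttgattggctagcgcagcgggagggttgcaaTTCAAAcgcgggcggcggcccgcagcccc
Bub3, chr7:131560270-131560369, forward strand: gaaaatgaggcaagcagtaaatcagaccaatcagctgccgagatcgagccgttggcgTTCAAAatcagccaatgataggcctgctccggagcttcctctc
Kif22, chr7:127042421-127042520, reverse strand: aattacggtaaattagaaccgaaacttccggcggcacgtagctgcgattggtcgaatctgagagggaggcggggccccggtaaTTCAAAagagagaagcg

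Of 50 DNA replication genes 24 fell (48.0%) and 2 rose, with a median of -0.19, and after median-of-ratios scaling 38 fell and 1 rose. Mcm5, a subunit of the replicative helicase, was at 591, 572, 645, 726 and 591 TPM in centroblasts and 494, 428, 447, 446 and 439 TPM in centrocytes (log2 change -0.47 ± 0.07 SE, adjusted p = 0.000128). Mcm5 did not overlap between the groups, while the clamp gene Pcna did, at 862, 815, 774, 692 and 729 TPM in centroblasts and 802, 655, 659, 775 and 667 TPM in centrocytes, and was not called (log2 change -0.12 ± 0.08 SE, adjusted p = 0.205). The 2 members that rose were the origin recognition gene Orc1 (0.31) and the chromatin remodeller gene Hells (0.41). The E2F element TTCCCGC, searched on both strands, lay in 35.4% of 48 promoter windows of this list (41 of 50 members matched). It lay in 4.60% of all windows, 8.53% of those of tested genes and 9.13% of those of genes called lower. Among 23 cyclins, kinases and inhibitors of G1, 7 rose and 5 fell (4 rose after median-of-ratios scaling, and 4 rose and 3 fell with all 20 libraries in the fit). Ccnd3, which encodes cyclin D3, was at 340.0, 326, 321, 466 and 397 TPM in centroblasts and 301, 251.6, 273, 254 and 301 TPM in centrocytes (log2 change -0.41 ± 0.10 SE, adjusted p = 0.00376), so that cyclin D2 and cyclin D3 transcripts changed in opposite directions, each without overlap. Their levels also differed, since Ccnd3 remained the more abundant in each centrocyte library (251.6 to 301 TPM against 16.2 to 27.7 TPM for Ccnd2). Among the inhibitors Cdkn1b (0.54) rose and Cdkn2d (-0.68), Cdkn2a (-0.77) and Cdkn2c (-0.26) fell, with the call of Cdkn2c lost in 4 of the 10 fits without 1 library.

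NF-kB target genes rose with the light zone genes. Of 37 members 28 rose (75.7%) and 2 fell, with a median of 0.96. Nfkbia, which encodes the inhibitor IkB alpha and is itself a target, was at 66.9, 73.4, 83.4, 69.2 and 92.9 TPM in centroblasts and 187, 191, 210.4, 183 and 198 TPM in centrocytes (log2 change 1.33 ± 0.09 SE, adjusted p = 6.69e-08). Ebi3, a cytokine subunit gene, was at 5.38, 6.21, 6.11, 8.24 and 5.14 TPM in centroblasts and 21.6, 23.5, 27.6, 21.1 and 27.3 TPM in centrocytes (log2 change 1.81 ± 0.13 SE, adjusted p = 1.32e-07). Tnfaip3, which encodes the ubiquitin-editing inhibitor A20, was at 16.6, 22.2, 20.6, 19.9 and 17.9 TPM in centroblasts and 38.8, 52.7, 55.4, 45.6 and 42.3 TPM in centrocytes (log2 change 1.22 ± 0.11 SE, adjusted p = 1.4e-06). Each lay higher in all centrocyte libraries than in any centroblast library, and Nfkbia and Tnfaip3 encode inhibitors of the pathway. Traf1 and Traf2, also in the list, were not called (-0.06 and -0.02), and the 2 falls were Tifa and Gadd45b (-0.85). Among 17 subunits and upstream kinases 8 rose and 0 fell (1 fell after median-of-ratios scaling), with a median of 0.16, close to that of all genes. Nfkb2 (1.27), Relb (1.12), Rel (0.995) and Traf3 (0.86), which encodes neither a subunit nor a kinase, led them. This list shares 3 tested genes with the target list, Nfkb2 among them. Nfkb1 rose less (0.47), and Rela was at 55.9, 70.3, 66.8, 93.2 and 71.5 TPM in centroblasts and 75.3, 77.8, 80.3, 70.0 and 85.5 TPM in centrocytes and was not called (log2 change 0.14 ± 0.11 SE, adjusted p = 0.317).

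The kB consensus, a motif of 10 letters searched on both strands, lay in 34.1% of 41 promoter windows of the target list. Of 37 members 31 matched RefSeq (GRCm38.p6). The motif lay in 4.51% of all windows and 4.97% of those of tested genes. The list is defined by NF-kB control, so the share describes the list and not these libraries. The 100 bases before the start are given for 4 members, 5′ to 3′ on the gene's strand, with each match in capitals on either strand. They were taken in order of adjusted p from called rises with a match in these bases, and rises without one were passed over. These 4 rose by 1.33 (Nfkbia), 1.81 (Ebi3), 1.27 (Nfkb2) and 1.22 (Tnfaip3). The window of Nfkb2 held 3 matches, of which 2 overlap.
Nfkbia, chr12:55492648-55492747, reverse strand: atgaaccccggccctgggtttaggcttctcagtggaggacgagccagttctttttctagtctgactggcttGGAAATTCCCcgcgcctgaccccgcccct
Ebi3, chr17:55952523-55952622, forward strand: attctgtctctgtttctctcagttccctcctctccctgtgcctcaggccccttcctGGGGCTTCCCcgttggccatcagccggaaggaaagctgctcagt
Nfkb2, chr19:46304637-46304736, forward strand: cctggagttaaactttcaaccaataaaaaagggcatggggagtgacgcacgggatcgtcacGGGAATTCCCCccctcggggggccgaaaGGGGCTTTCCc
Tnfaip3, chr10:19015411-19015510, reverse strand: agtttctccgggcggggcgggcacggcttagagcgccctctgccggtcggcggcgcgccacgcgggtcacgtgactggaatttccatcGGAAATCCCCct

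Immediate early genes, which respond within minutes to receptor signals, rose in 19 of 30 cases (63.3%) and fell in 3. Egr2 was at 4.72, 5.73, 3.56, 3.11 and 3.91 TPM in centroblasts and 20.9, 25.8, 21.8, 17.1 and 19.8 TPM in centrocytes (log2 change 2.10 ± 0.15 SE, adjusted p = 1.15e-07). Nr4a1, often used as a reporter of B cell receptor signals, was at 5.01, 7.35, 10.04, 11.2 and 8.65 TPM in centroblasts and 24.8, 34.4, 43.7, 32.1 and 32.2 TPM in centrocytes (log2 change 1.89 ± 0.18 SE, adjusted p = 2.25e-06). Both were higher in each centrocyte library. Atf3, a stress factor gene also in the dissociation list, went the other way, at 4.69, 3.44, 5.84, 6.88 and 3.84 TPM in centroblasts and 0.203, 1.004, 0.451, 0.606 and 1.08 TPM in centrocytes (log2 change -1.83 ± 0.20 SE, adjusted p = 7.25e-06), and Fos overlapped between the groups, at 161, 146, 158, 199.9 and 218 TPM in centroblasts and 241, 213, 274, 263 and 299 TPM in centrocytes (log2 change 0.55 ± 0.11 SE, adjusted p = 0.00127). Gadd45b fell from 259 ± 27.5 to 143 ± 8.80 TPM, so this list and the NF-kB list each hold a clear exception to their direction.

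Genes of B cell receptor signalling and the receptors that dampen it were listed apart. Of 40 receptor signalling genes 22 rose (55.0%) and 4 fell, with a median of 0.25, and with all 20 libraries in the fit 13 rose and 1 fell. The receptor chains Cd79a (0.20) and Cd79b (-0.25) overlapped between the groups, and the call of Cd79a was lost in 5 of the 10 fits without 1 library. The proximal kinase Syk lay at 452, 536, 452, 548 and 503 TPM in centroblasts and 382, 459.6, 445, 395 and 464 TPM in centrocytes, overlapped between the groups and was called lower (log2 change -0.21 ± 0.08 SE, adjusted p = 0.0334). The call of Syk was lost in 5 of those fits too, and 2 rather than 4 members fell without centrocyte library 4. The calcium channel gene Itpr1 was at 9.35, 15.6, 10.1, 11.6 and 10.7 TPM in centroblasts and 23.9, 37.0, 34.4, 29.7 and 33.2 TPM in centrocytes (log2 change 1.39 ± 0.14 SE, adjusted p = 3.59e-06), and the adaptor genes Pag1 (1.06) and Pik3ap1 (0.66) rose. Of 17 inhibitory receptors 13 rose (76.5%) and 0 fell, with a median of 0.88. Cd72 was at 258, 284, 360.1, 272 and 297 TPM in centroblasts and 469, 754, 907, 686 and 690.3 TPM in centrocytes (log2 change 1.23 ± 0.15 SE, adjusted p = 3.34e-05), Cd22 at 382, 475, 404, 431 and 409 TPM in centroblasts and 678, 877, 835, 725 and 773 TPM in centrocytes (log2 change 0.88 ± 0.08 SE, adjusted p = 1.29e-06). Lilrb3, the symbol of the paired receptor PIR-B in these files, rose by 1.74, and Fcgr2b, the inhibitory Fc receptor, by 0.34 with overlapping groups. Whether the 2 lists differ was not tested.

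Receptors for T cell help and the machinery that presents antigen mostly rose. Of 29 genes of T cell help and costimulation 23 rose (79.3%) and 2 fell (1 with all 20 libraries in the fit, or without centroblast library 2 or 3 or centrocyte library 1, 4 or 5), with a median of 0.60. Cd40 was at 74.2, 73.3, 81.5, 72.0 and 74.9 TPM in centroblasts and 148, 142, 146, 143 and 141 TPM in centrocytes, with little spread in either group (log2 change 0.93 ± 0.06 SE, adjusted p = 3.99e-08). Il2rg, the shared cytokine receptor chain, was at 144, 168, 153, 153 and 151 TPM in centroblasts and 302, 388, 335, 298 and 330.0 TPM in centrocytes (log2 change 1.09 ± 0.07 SE, adjusted p = 1.04e-07), and Il21r (0.72), Icosl (0.74) and the BAFF receptor gene Tnfrsf13c (0.86) rose. Cd80 was at 7.53, 11.3, 6.67, 4.90 and 2.36 TPM in centroblasts and 8.49, 12.1, 9.03, 8.03 and 4.11 TPM in centrocytes and did not pass this test (log2 change 0.37 ± 0.32 SE, adjusted p = 0.367), and the related Cd86 belongs to the sort. Of 23 class II presentation genes 16 rose (69.6%) and 1 fell (0 without centroblast library 3, 4 or 5 or centrocyte library 1 or 2, and 2 after median-of-ratios scaling), with a median of 0.42. Ifi30, a thiol reductase of the endosome, changed most, at 409, 391, 450.3, 489.7 and 471 TPM in centroblasts and 1023, 964, 1062, 1022 and 1176 TPM in centrocytes (log2 change 1.25 ± 0.07 SE, adjusted p = 2.96e-08). H2-Aa, an already abundant class II chain, was at 6224, 5844, 7145, 6231 and 6819.5 TPM in centroblasts and 9066, 9181, 9602, 9557 and 9856 TPM in centrocytes (log2 change 0.55 ± 0.06 SE, adjusted p = 6.09e-06), and the regulators Rfx5 (0.96) and Ciita (0.83) rose. None of Ifi30, H2-Aa, Rfx5 and Ciita overlapped between the groups. Of 21 class I genes 12 rose (57.1%) and 0 fell (2 fell after median-of-ratios scaling or with array weights, and 1 without centroblast library 2 or centrocyte library 1). The rises were led by Cd1d1 (1.52), Tapbp (0.89) and Nlrc5, while the immunoproteasome genes Psmb8 (-0.12), Psmb9 (-0.11) and Psmb10 (-0.03) were not called. Macrophages and resting B cells also express class II genes and their markers moved the same way, and their part was not tested.

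Positioning receptors more often rose than fell. Of 33 genes 17 rose (51.5%) and 2 fell (5 after median-of-ratios scaling and 1 with all 20 libraries in the fit), with a median of 0.62. Cxcr5 was at 253, 308, 269.9, 293 and 284 TPM in centroblasts and 389, 465, 456, 412 and 445 TPM in centrocytes (log2 change 0.62 ± 0.07 SE, adjusted p = 9.71e-06). The sphingosine phosphate receptors diverged. S1pr3 was at 18.6, 21.4, 20.98, 18.3 and 19.6 TPM in centroblasts and 45.4, 59.0, 63.8, 55.5 and 60.4 TPM in centrocytes (log2 change 1.47 ± 0.09 SE, adjusted p = 6.18e-08), and S1pr1, which leads cells out to the circulation, at 19.4, 25.4, 21.4, 21.3 and 23.9 TPM in centroblasts and 41.2, 66.9, 44.5, 38.9 and 56.5 TPM in centrocytes (log2 change 1.10 ± 0.13 SE, adjusted p = 2e-05). S1pr2, which confines cells to the germinal centre, was at 344, 357, 429, 446 and 419 TPM in centroblasts and 329.9, 247, 331, 318 and 345 TPM in centrocytes with overlapping groups and fell (log2 change -0.35 ± 0.10 SE, adjusted p = 0.0092), a call that ended with all 20 libraries in the fit (adjusted p = 0.051). S1pr4 fell too (-0.46). Thus S1pr1 and S1pr3 were higher, and S1pr2 and S1pr4 lower, in centrocytes. Gpr183, the oxysterol receptor of the outer follicle (1.21), Ccr7 (1.35) and the proton sensor gene Gpr65 (1.25) rose, and Gna13, which relays S1pr2 signals, was not called (-0.13). Of 25 integrin and adhesion genes 17 rose and 3 fell (6 after median-of-ratios scaling). The integrin gene Itgb3, at 48.8, 51.5, 38.7, 40.5 and 37.8 TPM in centroblasts and 25.7, 28.8, 19.8, 19.5 and 19.0 TPM in centrocytes, fell (log2 change -0.93 ± 0.13 SE, adjusted p = 5.4e-05), without overlap. Ccr7 and Cxcr5 also mark naive B cells, and that list's sum moved with them. The naive list and the positioning list share 4 tested genes. S1pr3 is also in the list of marginal zone and B1 cell markers, of which 11 of 17 rose and 3 fell. The part of such cells in these rises was not tested.

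Of 27 memory precursor genes 21 rose (77.8%) and 1 fell (2 after median-of-ratios scaling or without centroblast library 1), with a median of 1.201, and without centrocyte library 2 the counts were the same. Bcl2, which protects memory cells from death, was at 1.07, 1.76, 0.977, 0.538 and 1.07 TPM in centroblasts and 4.64, 11.2, 6.21, 5.85 and 6.94 TPM in centrocytes (log2 change 1.91 ± 0.20 SE, adjusted p = 6.09e-06). Cd38, low on mouse germinal centre cells and high on memory and naive cells, was at 42.9, 45.1, 33.6, 27.3 and 28.9 TPM in centroblasts and 90.4, 138, 109, 85.5 and 102 TPM in centrocytes (log2 change 1.54 ± 0.15 SE, adjusted p = 4.06e-06). Klf2 (1.04), Klf3 (1.73) and Tbx21 (1.28) rose as well, and for Bcl2, Cd38 and Klf3 centrocyte library 2 was the highest. Vcam1, in this list and in the macrophage list, rose by 2.14, Nt5e fell (-0.89), and Bach2, a repressor linked to memory fate, was at 101, 158, 110.0, 155 and 121 TPM in centroblasts and 94.4, 112, 116, 107 and 117 TPM in centrocytes and was not called (log2 change -0.22 ± 0.12 SE, adjusted p = 0.133). Naive B cell markers rose with this list, but the 2 lists share 6 tested genes (of 27 and 16), so they do not move independently. The part of naive cells in this list was not tested.

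Transcription regulators of the germinal centre were mixed. Of 34 members 20 rose and 4 fell (2 fell with all 20 libraries in the fit, or without centroblast library 4 or centrocyte library 3, 4 or 5). Bcl6, the repressor that defines germinal centre B cells, was at 258, 344, 292, 387 and 329.7 TPM in centroblasts and 323, 309, 365, 339.8 and 363 TPM in centrocytes, with overlapping groups and no call (log2 change 0.09 ± 0.09 SE, adjusted p = 0.462). Its sign turned after median-of-ratios scaling (-0.06, adjusted p = 0.626). Foxo1 likewise overlapped, at 92.9, 116, 113, 136 and 119.7 TPM in centroblasts and 97.4, 106, 127, 111 and 123 TPM in centrocytes (log2 change -0.03 ± 0.10 SE, adjusted p = 0.835). Irf4, which rises with CD40 and receptor signals, was at 23.01, 30.3, 28.9, 24.7 and 18.9 TPM in centroblasts and 59.1, 72.5, 81.3, 61.6 and 59.5 TPM in centrocytes (log2 change 1.38 ± 0.13 SE, adjusted p = 1.54e-06). Prdm1, the plasma cell regulator Blimp-1, was low in both, at 0.804, 1.46, 2.82, 0.981 and 1.34 TPM in centroblasts and 4.29, 4.58, 7.01, 3.49 and 3.81 TPM in centrocytes, but higher in each centrocyte library (log2 change 1.203 ± 0.21 SE, adjusted p = 0.000403). Of 22 plasma cell genes 11 rose (7 with all 20 libraries in the fit) and 4 fell. The members that rose include the chaperone genes Hsp90b1 (0.89) and Pdia4 (1.16), while the antibody secretion genes Igj, the joining chain, and 2010001M09Rik, an older symbol of Mzb1, fell by 0.90 and 0.84 on the log2 scale. Xbp1 was not called (log2 change -0.25 ± 0.10 SE, adjusted p = 0.0581).

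**Figure D4:**
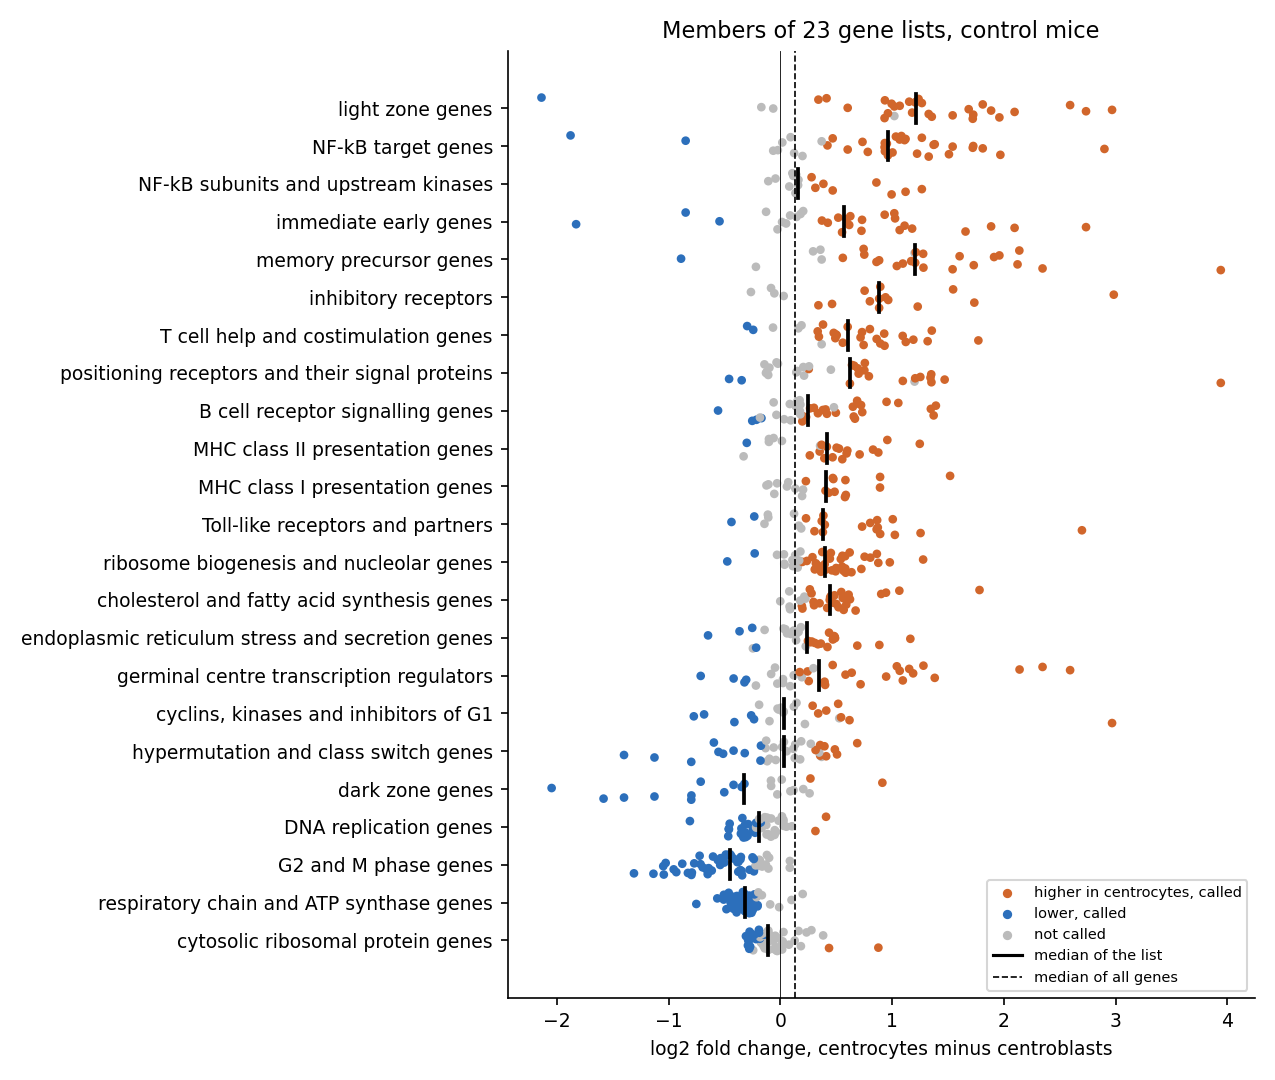
Each row is 1 of 23 gene lists and each point a tested member, placed by its log2 fold change, centrocytes minus centroblasts, in control mice; orange and blue members were called higher and lower, grey ones were not called, the thick bar is the list's median and the dashed line the median of all genes (0.13). Light zone, memory precursor and NF-kB target lists have medians of 1.21, 1.201 and 0.96, while G2 and M phase (-0.45), respiratory chain (-0.32) and dark zone (-0.32) lists lie below 0.

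Growth genes split between MYC with the nucleolus and the mitochondrial respiratory chain. Myc was at 19.1, 23.2, 26.9, 30.4 and 24.7 TPM in centroblasts and 73.3, 85.1, 85.0, 72.5 and 91.6 TPM in centrocytes (log2 change 1.68 ± 0.11 SE, adjusted p = 7.09e-08). Of 11 genes of its network 5 rose and 1 fell (3 and 2 after median-of-ratios scaling). The antagonist gene Mxd3 (-0.49) fell, Mxd4 (0.70) and Mga (0.85) rose, and the partner gene Max was not called (0.10, or -0.04 after that scaling). Of 46 ribosome biogenesis and nucleolar genes 33 rose (71.7%) and 2 fell (1 without centroblast library 3, 4 or 5 or centrocyte library 2, 3 or 4), with a median of 0.40. The nucleolar GTPase gene Gnl3, whose coordinates hold snoRNA genes, was at 49.98, 51.2, 46.7, 37.0 and 39.4 TPM in centroblasts and 113, 109.9, 113, 121 and 91.9 TPM in centrocytes (log2 change 1.28 ± 0.10 SE, adjusted p = 3.9e-07), and the RNA polymerase I subunit gene Polr1b (0.98), Nolc1 (0.72) and the spermidine synthase gene Srm (0.86) rose. The protein genes of the finished ribosome did not follow. Of 58 cytosolic ribosomal protein genes 2 rose and 16 fell (27.6%), with a median of -0.11, and 32 fell after median-of-ratios scaling, 26 with array weights and 3 with all 20 libraries in the fit. Rpl8 lay at 4755, 4209, 4812, 4928 and 4947 TPM in centroblasts and 4034, 3942, 3759.6, 3788 and 3947 TPM in centrocytes (log2 change -0.28 ± 0.06 SE, adjusted p = 0.00105). Most ribosomal protein genes have processed pseudogenes that can share their reads, so single values are uncertain.

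Of 54 respiratory chain and ATP synthase genes 47 fell (87.0%) and 0 rose (1 without centroblast library 2 or with array weights), with a median of -0.32. Sdhb, a subunit of succinate dehydrogenase, was at 718, 579, 683, 629 and 668 TPM in centroblasts and 445, 362, 358, 405 and 376 TPM in centrocytes (log2 change -0.75 ± 0.08 SE, adjusted p = 3.45e-06). Cox4i1, of cytochrome c oxidase, was at 2191, 1711, 2059, 1968 and 2037 TPM in centroblasts and 1529.7, 1343, 1334, 1415 and 1375 TPM in centrocytes (log2 change -0.51 ± 0.07 SE, adjusted p = 4.4e-05). Both lay lower in each centrocyte library than in any centroblast library. Transcript length moved with the contrast as a whole. In 4 equal bins of tested genes, from the shortest transcripts to the longest, the median change was -0.03, 0.07, 0.15 and 0.30. Of the respiratory chain genes 40 of 54, and of the ribosomal protein genes 50 of 58, lay in the shortest bin (at most 2072 bases), against 9 of 54 G2 and M phase genes, and the part of length in these differences was not tested. The respiratory chain genes had a median length of 1307 bases, so their median (-0.32) and that of the shortest bin (-0.03) are not matched for length. Mitochondrial encoded genes were not analysed here.

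Glucose and one-carbon genes moved in both directions. Of 36 glucose and hypoxia genes 6 rose and 7 fell (14 fell after median-of-ratios scaling, and 12 rose with array weights). Aldoc, an aldolase isoform best known from brain, was at 14.7, 11.3, 11.8, 13.3 and 14.02 TPM in centroblasts and 46.3, 41.8, 54.9, 50.7 and 46.1 TPM in centrocytes (log2 change 1.81 ± 0.10 SE, adjusted p = 1.56e-08), and Hk2, the inducible hexokinase, rose by 0.87. Idh2, of the mitochondrial citric acid cycle, fell from 127 ± 10.1 to 72.6 ± 8.39 TPM (-0.80), as did Fh1 (-0.47) and Mdh2 (-0.38). Of 32 nucleotide and one-carbon genes 9 rose (5 after median-of-ratios scaling) and 8 fell (5 with all 20 libraries in the fit, or without centrocyte library 2, 3 or 5), with Shmt1 (0.71) rising and Prps2 (-0.80) falling. Of 33 cholesterol and fatty acid synthesis genes 26 rose (78.8%) and 0 fell, with a median of 0.45. Scd1, the stearoyl-CoA desaturase, was at 236, 267, 254, 269 and 238 TPM in centroblasts and 426, 469, 536, 489 and 523 TPM in centrocytes (log2 change 0.95 ± 0.07 SE, adjusted p = 2.81e-07). Hmgcs1 (0.67) of the mevalonate pathway rose less than Abcg1, which exports cholesterol and is no gene of its synthesis, at 1.29, 1.63, 2.19, 1.28 and 1.19 TPM in centroblasts and 6.92, 8.29, 9.95, 6.46 and 6.63 TPM in centrocytes (1.78).

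Survival and growth factor signalling genes changed within families. Of 33 BCL2 family and death genes 15 rose and 5 fell (3 without centroblast library 5). Besides Bcl2, the anti-apoptotic genes Bcl2a1d (1.73), Birc3 (0.94) and Mcl1 (0.27) rose, while the pro-apoptotic genes Bcl2l11, which encodes BIM (-0.32), Bad (-0.45) and Bak1 (-0.31) fell. The call of Bcl2l11 was lost in 1 of the 10 fits without 1 library, and Bax (-0.03) was not called. Of 34 PI3K, FOXO and mTOR genes 15 rose (8 with all 20 libraries in the fit) and 2 fell (4 after median-of-ratios scaling), with a median of 0.14. Akt1 was at 445, 446, 463, 543 and 470.2 TPM in centroblasts and 273, 261, 236, 233 and 263 TPM in centrocytes (log2 change -0.90 ± 0.07 SE, adjusted p = 4.02e-07), and the mTOR inhibitor genes Ddit4 (1.54) and Sesn1 (1.03) rose. Of 25 JAK, STAT, SOCS and PIM genes 16 rose (10 after median-of-ratios scaling) and 2 fell. The kinase gene Jak3 rose, at 15.2, 17.8, 21.2, 31.8 and 22.4 TPM in centroblasts and 41.5, 42.4, 50.9, 39.7 and 42.2 TPM in centrocytes (log2 change 1.004 ± 0.15 SE, adjusted p = 0.000106), and Pim1 fell from 299 ± 35.1 to 192 ± 17.0 TPM (-0.63).

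Innate receptor genes were mostly higher in centrocytes, and their adaptor was not called. Of 24 Toll-like receptors and partners 16 rose (66.7%) and 2 fell (4 after median-of-ratios scaling and 0 with all 20 libraries in the fit). Besides Tlr7, Tlr9 was at 37.3, 54.6, 54.0, 55.5 and 52.7 TPM in centroblasts and 71.9, 97.8, 121, 82.7 and 94.6 TPM in centrocytes (log2 change 0.86 ± 0.13 SE, adjusted p = 0.000148), and Tlr1 (1.02), Cd180 (0.87) and its partner Ly86 (0.73) rose. Myd88, the adaptor that carries the mutation in the other mice of the series, was at 80.9, 71.6, 86.7, 96.1 and 77.4 TPM in centroblasts and 77.2, 70.6, 68.1, 77.3 and 78.9 TPM in centrocytes, overlapped between the groups and was not called (log2 change -0.14 ± 0.08 SE, adjusted p = 0.164). Of 30 interferon-stimulated genes 17 rose and 0 fell, but 10 rose without centrocyte library 2, and 11 rose and 1 fell after median-of-ratios scaling. Irgm1 was at 8.93, 11.3, 7.68, 7.29 and 9.81 TPM in centroblasts and 23.7, 40.8, 25.3, 27.3 and 24.4 TPM in centrocytes (log2 change 1.53 ± 0.15 SE, adjusted p = 3.02e-06), again highest in that library. Isg15 was at 10.9, 18.6, 9.997, 8.12 and 12.4 TPM in centroblasts and 13.5, 18.9, 14.7, 12.4 and 11.5 TPM in centrocytes and was not called (log2 change 0.26 ± 0.18 SE, adjusted p = 0.26).

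Chromatin, secretion and lysosome genes completed the lists. Of 31 chromatin modifier genes 16 rose (8 with all 20 libraries in the fit) and 3 fell (8 after median-of-ratios scaling). Smarca4, the ATPase of the BAF complex, was at 222, 309, 243, 363 and 255 TPM in centroblasts and 142, 144, 131, 119.5 and 134 TPM in centrocytes (log2 change -1.03 ± 0.11 SE, adjusted p = 7.51e-06), opposite to the related ATPase gene Smarca2 above. Kdm6b (1.23) and Dnmt3a (1.10) rose from low levels, and the methyltransferase gene Ezh2 was at 265, 303, 271, 269.7 and 260.0 TPM in centroblasts and 251, 257, 251, 274 and 259 TPM in centrocytes and was not called (log2 change -0.08 ± 0.06 SE, adjusted p = 0.266). Of 32 endoplasmic reticulum stress and secretion genes 16 rose (10 after median-of-ratios scaling or with all 20 libraries) and 4 fell (2 with all 20 libraries). The chaperone gene Hspa5 was at 414, 546, 435, 451 and 494 TPM in centroblasts and 665, 753, 746, 784 and 817 TPM in centrocytes (log2 change 0.69 ± 0.08 SE, adjusted p = 1.2e-05), and the sensor kinase gene Eif2ak3 at 142, 164, 131, 140.1 and 156 TPM in centroblasts and 92.5, 91.8, 92.8, 88.3 and 100.03 TPM in centrocytes (log2 change -0.65 ± 0.07 SE, adjusted p = 7.34e-06), each without overlap. Of 38 lysosome and vacuolar ATPase genes 22 rose and 4 fell (8 after median-of-ratios scaling), the 4 being the vacuolar ATPase subunits Atp6v0b (-0.35), Atp6v0d1 (-0.34), Atp6v1f (-0.25) and Atp6v1g1 (-0.24), whose call was lost in 8 of the 10 fits without 1 library. Psap (0.70) and Ctss (0.52) rose, and macrophages express both.

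The same contrast was then set beside that in Myd88L252P +/- mice, whose libraries are separate. In a fit of all 20 libraries, 3498 genes were called in controls and 6997 in mutants (61.5% of 11386). Of these, 3214 were called in both with the same sign, 91.9% of the genes called in controls and 45.9% of those called in mutants, and 2 with opposite signs. Each of the 30 largest rises and falls in controls had the same sign in mutants and was called there. Mutant centroblast libraries 4 and 5 stood apart, with 36.9 and 43.7% of TPM from transcripts of at most 1599 bases against 29.7 to 32.5% in mutant centroblast libraries 1 to 3, and the median of all genes in mutants was 0.34. A test of the difference itself called 2 of 11386 genes (0.0176%), while 1322 had an unadjusted p under 0.05. Pafah1b3, 758 ± 66.7 against 183 ± 19.1 TPM in controls, was 915 ± 99.5 against 130.1 ± 7.65 TPM in mutant centroblasts and centrocytes (SD, n = 5 each), and its fall was larger in mutants by a difference of -0.75 (adjusted p = 0.0241). 8430410A17Rik, an older symbol of Hmces, which protects abasic sites in DNA, was at 1375, 1299.8, 1646, 1568 and 1444 TPM in control centroblasts and 577, 519, 509, 555 and 509.6 TPM in control centrocytes, and its difference was -0.71 (adjusted p = 0.0241). Neither call held after median-of-ratios scaling (adjusted p = 0.178 for both), and they were lost in 10 and 9 of the 20 fits without 1 library. Without mutant centroblast libraries 4 and 5, 4 genes were called. Il27 (1.60, adjusted p = 0.0592), Ccbp2 (1.07, adjusted p = 0.219), Sdc4, Cd97 and H2afv followed and were not called. Of the rises, Ccr6 was 3.94 in controls and 4.80 in mutants (adjusted p of the difference 0.403) and Ccl22 2.90 and 2.52 (adjusted p = 0.498).

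**Figure D5:**
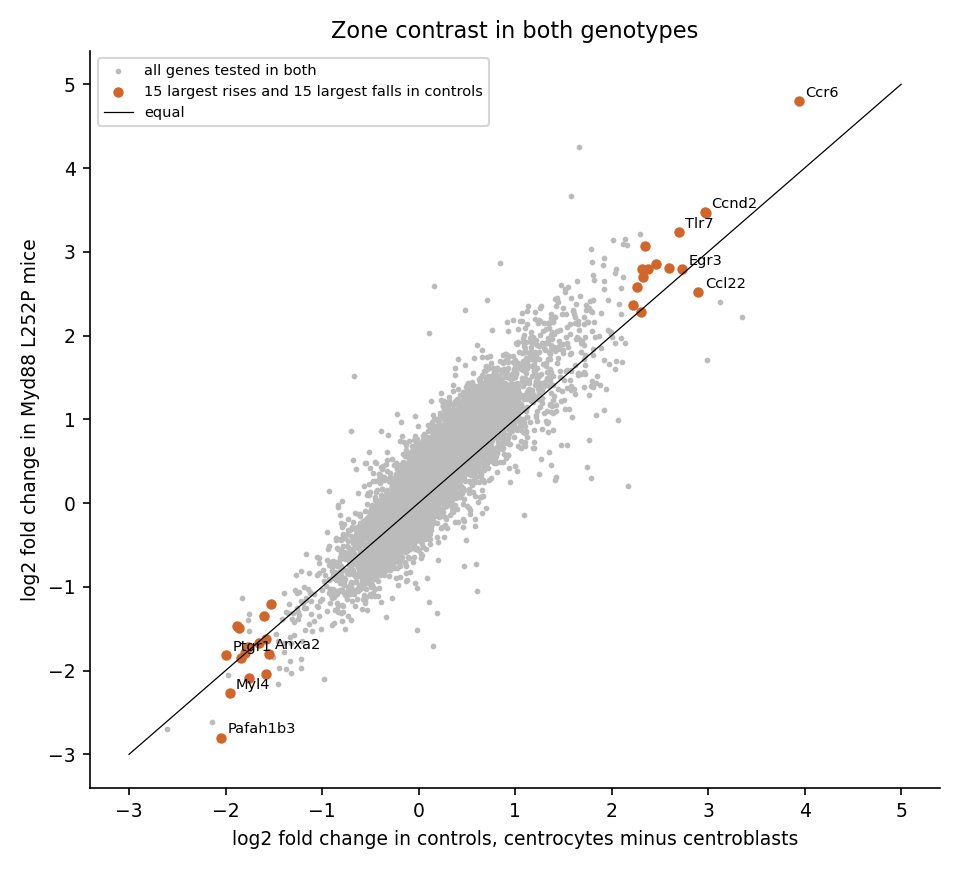
Each point is a gene tested in both fits, with its log2 fold change, centrocytes minus centroblasts, in control mice on the x axis and in Myd88 L252P mice on the y axis; orange points are the 15 largest rises and 15 largest falls in controls and the line marks equal change. All 30 lie on the same side of 0 on both axes, with Ccr6 at 3.94 and 4.80 and Pafah1b3 at -2.05 and -2.80.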

How the data were processed

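RNA sequencing libraries had been made from total RNA with Illumina TruSeq stranded mRNA kits, per the labels' protocols, and STAR and the mm10 genome are named in the submitters' processing notes. The authors deposited TPM values for 23382 gene symbols per library. Annotation, counting tool and read depth were not stated in any label or file header, so no count model was used. From the deposited TPM, genes at 1 TPM or more in at least 5 of the 10 control libraries were kept. log2(TPM + 1) was fitted with limma 3.58.1 in R 4.3.3, with a mean-variance trend, robust moderation and 8 residual degrees of freedom. P-values were Benjamini-Hochberg adjusted over all genes tested, and values are means ± SD (n = 5). The genotype difference was an interaction term over 20 libraries. The fit was tested on simulated data.

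Members and gene lists were chosen with earlier results of these data known. Of 1338 list entries 1330 were found. Genes named by rule were the sort markers, 16 genes fixed by name, the 15 largest rises and falls (at least 5 TPM in 1 group, no overlap), up to 4 members per list by adjusted p, and the leading genotype differences. Other genes named were chosen after their values were seen. The largest changes leave out numbered gene models, microRNA, snoRNA, receptor segments, Xist and Y-linked genes. Coordinates are those of GENCODE M21 (GRCm38) and promoters those of RefSeq (GRCm38.p6). Alternatives were the pseudocount, the filter, the scaling, the libraries fitted, the moderation, array weights, a replicate block and leaving out each library. Some genes of the lists and of the naming rule are not reported here by name, and they remain in the counts.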

Additional observations from a re-analysis of the deposited data

Results flagged for a closer look

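In 26 of 360 groups of 5 control libraries among the named genes, 1 library lay apart from the other 4 by Dixon's test. Chance flags about 1 in 20 groups. Those reported here follow, with 1 left out. For each gene the library's TPM is given against that of its nearest neighbour. Centroblast library 1 was the lowest of its 5 for Icam1 (68.0 against 74.8 TPM). Centroblast library 2 was the highest of its 5 for Ptprc (750.0 against 563 TPM) and Mga (19.6 against 12.02 TPM). Centroblast library 2 was the lowest of its 5 for Idh2 (109.7 against 128 TPM), Rpl8 (4209 against 4755 TPM) and Rplp0 (3382 against 3922 TPM). Centroblast library 3 was the lowest of its 5 for Adhfe1 (10.7 against 16.6 TPM). Centroblast library 4 was the highest of its 5 for Pde2a (80.3 against 59.4 TPM), Akt1 (543 against 470.2 TPM) and Srm (63.7 against 49.6 TPM). Centroblast library 4 was the lowest of its 5 for Ly86 (339.8 against 401 TPM) and Ctss (405 against 489.5 TPM). Centroblast library 5 was the highest of its 5 for Csf1r (3.80 against 2.63 TPM). Centrocyte library 1 was the highest of its 5 for Mxd3 (116 against 104 TPM). Centrocyte library 2 was the highest of its 5 for Ccr6 (98.0 against 55.4 TPM), Hhex (62.7 against 39.2 TPM), Irgm1 (40.8 against 27.3 TPM) and Asb2 (10.7 against 6.11 TPM). Centrocyte library 2 was the lowest of its 5 for S1pr2 (247 against 318 TPM). Centrocyte library 3 was the highest of its 5 for Polr1b (29.2 against 25.9 TPM), Jak3 (50.9 against 42.4 TPM) and Derl3 (79.0 against 58.9 TPM). Centrocyte library 3 was the lowest of its 5 for Pde2a (13.8 against 16.6 TPM) and Adhfe1 (2.91 against 4.08 TPM). Centrocyte library 4 was the highest of its 5 for Bcl2a1b (423 against 375 TPM). Ccr6 and Hhex kept their calls in each fit without 1 library.

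The zone contrast of Pafah1b3 differed between the genotypes, by -0.75 on the log2 scale (mutants minus controls, limma interaction, adjusted p = 0.0241), with changes of -2.80 in mutants and -2.05 in controls. After median-of-ratios scaling its adjusted p was 0.178, and the call was lost in 10 of the 20 fits without 1 library.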

How the results depend on the processing

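The total of 5105 called genes in controls ranged from 3498 to 6271 over 21 alternatives, and among those from 4251 to 5701 on leaving out 1 library. Lower genes numbered 2678 after median-of-ratios scaling. Genes higher by at least 1 on the log2 scale numbered 181 with a pseudocount of 5 TPM and 291 with a filter of 5 TPM, and those lower by at least 1 numbered 43 with that pseudocount. Genes whose zone contrast differed between genotypes numbered 4 without mutant centroblast libraries 4 and 5, 0 after median-of-ratios scaling, 14 with the replicate block and 0 to 7 on leaving out 1 library (0 without control centroblast 1, 2 or 5, control centrocyte 1, mutant centroblast 2 or 4, or mutant centrocyte 1, 2 or 5, 1 without control centrocyte 3, and 7 without mutant centroblast 1). The cause was not tested.

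Of 180 genes chosen by the naming rule 175 were called, and 171 kept their call and sign in every alternative that tested them. The filter of 5 TPM and the rescaling without ribosomal protein genes left some of them untested. Other genes named in the text are not counted here. Rpl19 lost it with all 20 libraries in the fit (adjusted p = 0.0802), as did S1pr2 (adjusted p = 0.051). Lck lost it after median-of-ratios scaling, with array weights and without centroblast library 1 or 5 or centrocyte library 1, 3 or 4. Bst2 lost it after that scaling, without a filter, without trend and robust moderation, and without centroblast library 1 or 3 or centrocyte library 2 or 3. Signs turned for 3 genes that were not called. Bcl6 was -0.059 and Mki67 -0.063 after median-of-ratios scaling. On leaving out 1 library Mki67 ranged from -0.013 (without centroblast library 1) to 0.234, and Foxo1 from -0.102 to 0.034, above 0 without centroblast library 4 or centrocyte library 1.

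With the replicate number as a block, 5623 genes were called in controls. Same-numbered centroblast and centrocyte libraries deviated together in 4 of 5 pairs (correlations from -0.02 to 0.32), and 8 of 10 libraries correlated best with their own number, a hint from the data and not from the design. Beta-s was at 74.3, 20.9, 137, 155 and 260 TPM in centroblast libraries 1 to 5. In centrocyte libraries 1 to 5 it was at 66.2, 37.6, 146, 141 and 259 TPM, so its level followed the number closely. Of 26 genes described as not called, 3 were called with the block in limma, Cd80 (0.37, adjusted p = 0.0222), Fas (0.19, adjusted p = 0.0486) and Xbp1 (-0.25, adjusted p = 0.0118). Within each number Cd80 was higher in the centrocyte library, which the main test does not use. The numbers were not used as pairs. TPM keeps no depth, so counting error could not be set beside the spread between libraries.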

Other observations

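Several gene families, some of whose members are also in the lists, were picked after their values were seen, so their counts are descriptions. Of 283 numbered zinc finger genes, many of which encode repressors, 136 were called higher in control centrocytes and 10 lower, against 32.6% and 14.3% of all genes, with a median of 0.34. Of 33 histone genes named by cluster 0 were higher and 12 lower (median -0.48). Of 38 proteasome subunit genes 0 were higher and 22 lower (median -0.21). Of 76 mitochondrial ribosomal protein genes 1 was higher and 36 were lower (median -0.19). Of 17 centromere protein genes 0 were higher and 10 lower.

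Of 69 small nucleolar RNA genes 26 were higher (37.7%, against 32.6% of all genes) and 0 lower, with a median of 0.93. Snord69 and Snord19, which changed most, lie inside the coordinates of Gnl3, a nucleolar gene that rose by 1.28, so reads of host and guest cannot be told apart. Of 12 KLF transcription factor genes 9 were higher and 0 lower, led by Klf3 (1.73). Of 6 genes of the interferon-inducible 200 family 5 were higher, including Mndal (1.92) and Ifi203 (2.05), whose coordinates overlap, so that their values are uncertain. Of 6 Dock genes, which activate small GTPases of cell movement, 5 were higher and 0 lower.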
